A study of Drosophila melanogaster with 10 samples.

Results

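The radiation response was compared between Dmp53NS and w1118 embryos of Drosophila melanogaster, with each Dmp53NS set matched to the w1118 set hybridized on the same day. The comparison takes the log2 change of irradiated over control embryos in w1118 and subtracts the same change in Dmp53NS, once in replicate 1 and once in replicate 2. A positive difference therefore means that irradiated over control was higher in w1118 than in Dmp53NS, whether the signal moved in w1118 or the opposite way in Dmp53NS. It covers 8 of the 10 arrays of the series and all 13966 probe sets that are not Affymetrix controls, of 14010 in the table. The yw pair, which ran on a day of its own with no mutant beside it, was left out of every fit and enters only where stated.

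The 4 groups were irradiated and control embryos of Dmp53NS, a strain mutant for the fly p53 gene, and irradiated and control embryos of w1118, a laboratory strain that the labels class as wild type. Each group had 2 replicates. Irradiated embryos received 40 Gy of gamma rays and control embryos a mock treatment. All were whole embryos gathered over 2.5 h of egg laying and aged for another 2.5 h at 25 °C, then left for 1.5 h after the dose. Each array held RNA of 1 collection of about 1 g of pooled embryos, hybridized to a single-colour Affymetrix DrosGenome1 array. The labels do not give the lesion of Dmp53NS or the strain it was made in, so the p53 mutation and the rest of the strain background cannot be told apart here.

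p53 is a transcription factor that is switched on when DNA is damaged. In fly embryos it is needed for the cell death that ionizing radiation causes, which runs through the RHG proteins (Reaper, Hid, Grim and Sickle). These displace inhibitor proteins from caspases, the proteases that carry out apoptosis. Fly p53 has also been reported to act on genes for DNA repair.

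The values are MAS5 signals, an arbitrary linear intensity per probe set, with a median of 63.3 to 85 per array. Replicates correlated at 0.881 to 0.901 on the log2 scale. Summed signals of 6 measured markers of germ-band embryos lay between 1806 and 3832 on the 8 arrays, against 189 to 330 for 5 markers of adult ovary and yolk and 69 to 135 for 4 of testis and accessory gland. Summed signals of 3 germ-line markers were 146 to 174 on the Dmp53NS arrays and 378 to 407 on the w1118 arrays. Most of that gap lay in zpg, a gap junction gene of germ cells, with 22.3 to 42.9 on Dmp53NS and 196 to 262 on w1118 arrays, while vas had 23.4 to 49.7 and 20.7 to 37.5. Summed signals of 3 hemocyte markers were 108 to 146 on Dmp53NS arrays and 136 to 313 on w1118 arrays, and in w1118 replicate 1 they were 289 on the irradiated and 136 on the control array. Those of 2 late embryo or larva markers were 536.5 and 535.5 on the irradiated and control arrays of w1118 replicate 2, against 187 to 281 on the other 6. That gap lay in elav, a neuron gene, with 430.7 and 441.8 on these arrays and 107.3 to 147.1 on the other 6. Lsp2 had 105.8 and 93.7, within the 76.6 to 153.8 of the other 6. The 3′ to 5′ ratio of eIF-4a, a measure of RNA quality, was 5.92 on the replicate 2 control array of Dmp53NS and 12.23 on the replicate 2 irradiated array of w1118, against 1.95 to 3.13 on the other 6. The 18S ratio was 35.22 on the replicate 2 control array of w1118, and the highest GAPDH ratio, 3.2, was on the replicate 1 irradiated array of Dmp53NS. The part of RNA quality or of these markers in the results was not tested, and values of both replicates are given for the genes described. In whole embryos, fewer cells of a type and less RNA per cell cannot be told apart.

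In w1118 embryos a small group of transcripts had a higher signal after 40 Gy on both arrays, while their Dmp53NS changes stayed within 1 log2 in both replicates. Among those with differences above 1 in both replicates were 2 probe sets with no gene name, called unnamed A and unnamed B here, the p53 inhibitor gene Corp, the tumour necrosis factor gene egr, the RHG gene skl and CG12194. Across the 8379 probe sets bright enough to test, 3 passed an adjusted p of 0.05 (0.0358%), and all 3 had a positive difference. They were unnamed A, the family probe set of TwdlN and unnamed B. No probe set passed in the other direction (0%), where 127 had an unadjusted p under 0.05 and where limma without its trend of variance over signal called 4. In either direction 300 had an unadjusted p under 0.05 (3.58%), fewer than the 419 that 8379 tests give if nothing differs. The test was limma's, on log2(signal + 12.6), with Benjamini-Hochberg adjustment over all 8379. With 2 sets per genotype it had 1 residual degree of freedom and took the spread of each probe set wholly from probe sets of like signal, the prior degrees of freedom being infinite, so its p-values do not reflect how well the replicates of a given probe set matched. An exact two-sided permutation test of 2 sets against 2 could not go below 0.333.

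**Figure D1:**
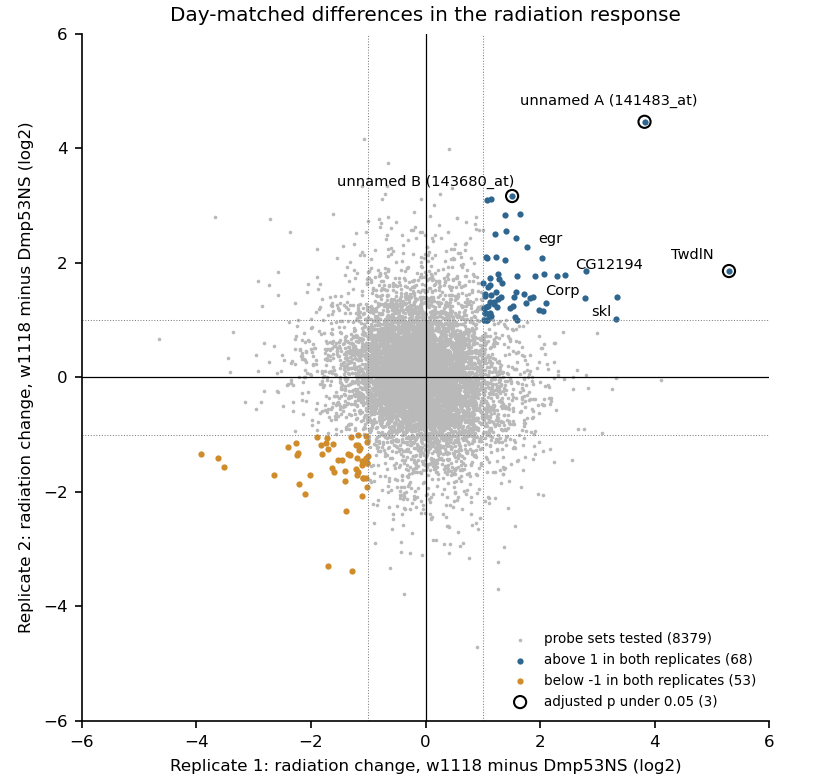
Each point is a probe set, placed by its w1118 minus Dmp53NS difference in radiation change (log2) in replicate 1 (horizontal) and replicate 2 (vertical). The 68 probe sets above 1 in both replicates are blue, the 53 below -1 in both are orange, and the 3 with an adjusted p under 0.05 are ringed; unnamed A lies at 3.83 and 4.46.

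Values below are given as replicate 1 and then replicate 2. Signals of unnamed A were 11.4 and 13.2 on irradiated Dmp53NS arrays and 17.7 and 22.5 on Dmp53NS controls. They were 1324 and 898 on irradiated w1118 arrays and 106 and 43.6 on w1118 controls. All 4 Dmp53NS arrays thus lay below all 4 w1118 arrays, and within w1118 the irradiated and control arrays did not overlap. The log2 change was -0.34 and -0.44 in Dmp53NS, against 3.49 and 4.02 in w1118. The difference was 4.14 (SE 0.65, 95% interval 2.87 to 5.42, adjusted p = 1.48e-06). The Dmp53NS signals lay near the added constant of 12.6, so its Dmp53NS change was hardly measured, and the difference was 4.64 with a constant of 1 and 3.51 with 42.6. The platform annotation gives no gene for it, so that what it measures is not known here.

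Unnamed B had signals of 255 and 141 on irradiated Dmp53NS arrays and 140.2 and 204 on Dmp53NS controls. It reached 1515 and 1234 on irradiated w1118 arrays, against 293 and 183 on w1118 controls. The 2 irradiated w1118 arrays stood above the other 6, which overlapped each other. How many of all 8379 tested probe sets show this order was not counted, so here and below it only describes the gene named. Its difference was 1.51 and 3.17 in the replicates and 2.34 over both (SE 0.50, adjusted p = 0.00779).

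TwdlN, a member of the Tweedle family of cuticle proteins, gave another kind of pattern. Its family probe set had 28.5 and 18.6 on irradiated Dmp53NS arrays and 517 and 34.3 on Dmp53NS controls. On w1118 it had 193 and 376 on irradiated arrays and 54.5 and 149 on controls. The difference of 3.58 (SE 0.61, adjusted p = 2.05e-05) came to 5.30 in replicate 1, which holds the 1 Dmp53NS control array at 517, and to 1.86 in replicate 2. Without replicate 1 of Dmp53NS it was 2.03, with an adjusted p of 0.961. A second TwdlN probe set had a difference of 0.80 (adjusted p = 1), and a family probe set can bind transcripts of related genes, so the TwdlN call is uncertain. The Twdl, Osi and Cpr cuticle families, picked after their values were seen, had 47 probe sets tested. Their median difference was -0.50 in replicate 1 and 0.58 in replicate 2. Of the 47, 2 exceeded 1 in both, TwdlN and Osi7, where 0.812% of all tested probe sets did. The families were picked with the TwdlN call known, so the count is a description.

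Each of the 3 calls depended on the sets in the fit. Fits with a set left out dropped the pairing by day, so they compare 1 set with the mean of both sets of the other strain. With 1 of the 4 sets left out and the lone set of its genotype assumed to vary like the others, the adjusted p was 0.00801 to 0.22 for unnamed A, 0.0316 to 0.961 for TwdlN and 0.226 to 1 for unnamed B, while their differences stayed at 3.88 to 4.41, 2.03 to 5.13 and 1.69 to 2.99.

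**Figure D2:**
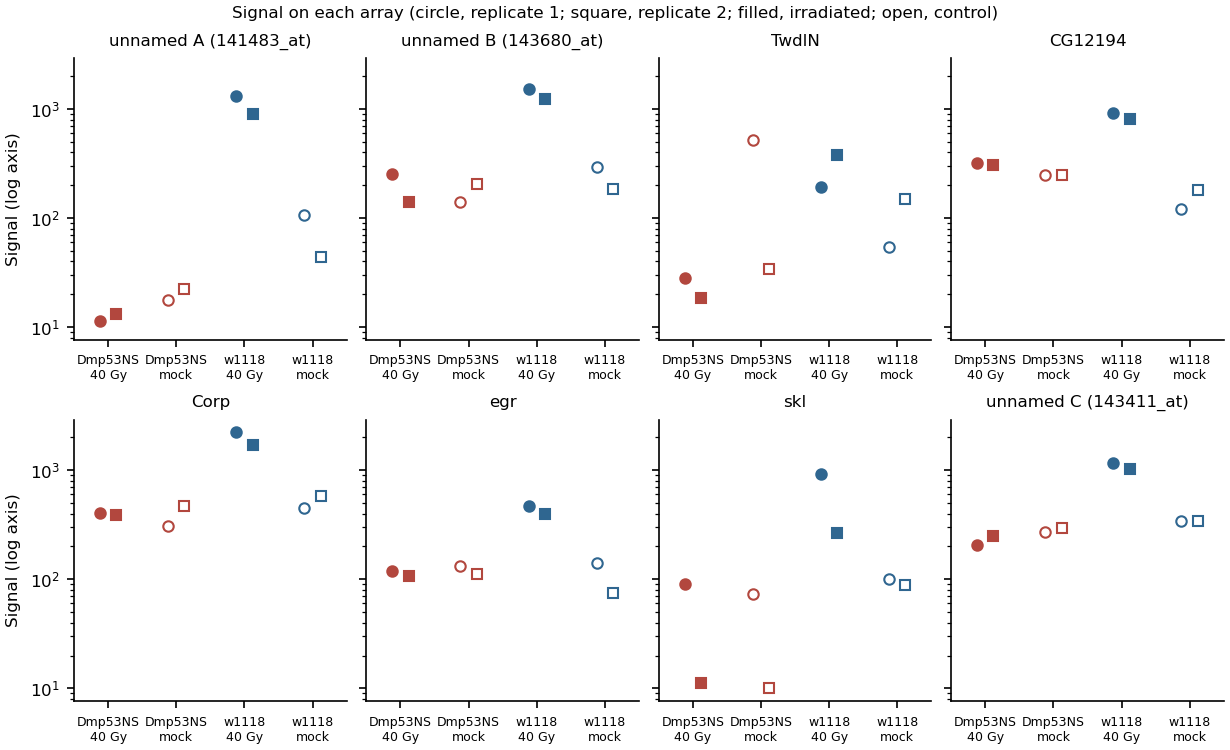
Signal (log axis) of 8 probe sets on each of the 8 arrays, with irradiated Dmp53NS, control Dmp53NS, irradiated w1118 and control w1118 from left to right, replicate 1 as circles and replicate 2 as squares. In each panel except that of TwdlN both irradiated w1118 points lie above the other 6, an order not counted over all probe sets. The TwdlN panel has its highest point, 517, on a control Dmp53NS array.

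Cell death genes also had large differences, and none passed the test. skl encodes Sickle, an RHG protein. Its signal was 90.4 and 11.1 in irradiated Dmp53NS embryos and 73 and 10 in their controls, against 926 and 265 in irradiated w1118 embryos and 101 and 88.3 in their controls. Both irradiated w1118 arrays were above the other 6, and the Dmp53NS level itself differed between replicates. The difference was 2.78 and 1.39, or 2.09 over both (SE 0.63, interval 0.86 to 3.31, adjusted p = 0.235).

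egr encodes Eiger, the fly tumour necrosis factor, which acts through the JNK pathway. It had 119 and 107 on irradiated Dmp53NS arrays and 132 and 112 on their controls. The irradiated w1118 arrays had 466 and 395, against 141 and 74.9 on their controls. Apart from the irradiated w1118 arrays all signals lay within 74.9 to 141, and the difference was 1.78 and 2.27, or 2.02 over both (SE 0.55, adjusted p = 0.147).

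Corp, Companion of reaper, has been reported to inhibit p53 in flies. Its signals were 402 and 392 in irradiated and 307 and 468 in control Dmp53NS embryos, against 2226 and 1697 in irradiated and 448 and 582 in control w1118 embryos. The irradiated w1118 arrays did not overlap the others. The 2 day-matched differences, 1.91 and 1.77, were close to each other, and their mean was 1.84 (SE 0.48, interval 0.91 to 2.77, adjusted p = 0.128).

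grim, a further RHG gene, was too dim to test. Its signals were 20.5 and 41.9 in irradiated and 32.9 and 41.1 in control Dmp53NS embryos, against 41.2 and 67 in irradiated and 36.3 and 22.4 in control w1118 embryos. Its groups overlapped, and the difference was 0.60 and 1.16. rpr and hid, the other RHG genes, were not analysed here. The 3 tested members of the death gene list were skl, egr and Corp, the last a p53 inhibitor gene and neither an RHG nor a tumour necrosis factor gene. All 3 were above 1 in both replicates, where 0.812% of all tested probe sets were. Their median difference was 2.02 against -0.05 over all. These genes were listed with earlier results of the same arrays known, so that the count is a description.

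Genes that act further along in apoptosis showed no common direction. Of 4 caspase and apoptosome genes tested, 1 was above 0 in both replicates and 1 below, against 19.3% and 24.7% of all tested probe sets. Their median was -0.09. Dark, the fly Apaf-1, which assembles the apoptosome, had 155 and 126 in irradiated and 102 and 156 in control Dmp53NS embryos, against 406 and 388 in irradiated and 260 and 189 in control w1118 embryos. The w1118 signals were higher than all Dmp53NS ones in both conditions, and the difference in response was 0.08 and 1.27, or 0.67 over both (adjusted p = 1). Dronc, the initiator caspase, had differences of 1.08 and -1.01, and Dredd, a caspase of the immune pathway, had -1.13 and -0.75. Diap2, Bruce and Debcl, the tested inhibitors and BCL-2 family member, lay between -0.09 and 0.63.

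The p53 probe set gave 213 and 104 in irradiated and 194 and 125 in control Dmp53NS embryos, against 499 and 261 in irradiated and 233 and 288 in control w1118 embryos. The Dmp53NS signals lay below every w1118 array of either treatment. Whether the probe set lies within the changed part of the mutant gene is not known here, so it does not check the genotype labels. The difference in its radiation change was 0.93 and 0.11, with a mean of 0.52 (SE 0.52, adjusted p = 1), and it was -0.076 without replicate 1 of w1118.

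DNA end repair genes had smaller differences, mostly above 0. Of 8 genes listed for binding, trimming and joining broken ends, all 8 were tested and 6 had a difference above 0 in both replicates, against 19.3% of all probe sets tested. 1 of the 6 was Irbp18, which was listed by its name but encodes a bZIP transcription factor; without it the count is 5 of 7, namely Irbp, mre11, rad50, nbs and DNAlig4. None of the 8 was below 0 in both (24.7% of all) and none passed the test. The median over all 8 was 0.79, with 0.64 in replicate 1 and 0.84 in replicate 2.

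mre11 encodes the nuclease of the MRN complex, which trims broken ends. Its signals were 268 and 268 in irradiated and 333 and 276 in control Dmp53NS embryos, against 732 and 669 in irradiated and 383 and 445 in control w1118 embryos. The irradiated w1118 arrays were above the other 6, with a difference of 1.21 and 0.62, or 0.91 over both (SE 0.49, interval -0.04 to 1.87, adjusted p = 1). rad50, its partner in the complex, had 239.9 and 182 in irradiated and 194 and 213 in control Dmp53NS embryos, against 454 and 388 in irradiated and 222 and 124 in control w1118 embryos. Here too the irradiated w1118 arrays stood apart, and the difference was 0.70 and 1.76, or 1.23 over both (interval 0.22 to 2.25, adjusted p = 1). nbs, the third subunit, had differences of 0.28 and 1.15.

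The end-joining factors were more mixed. DNAlig4, the ligase of end joining, had differences of 1.61 and 0.43, and Irbp (Ku70), which holds the break together with Ku80, had 0.26 and 0.47. Ku80 itself had 118 and 58.1 in irradiated and 34.4 and 78.8 in control Dmp53NS embryos, against 318 and 289 in irradiated and 106 and 125 in control w1118 embryos. Its change in replicate 1 was 1.48 in Dmp53NS and 1.48 in w1118, so the difference of 0.75 came from replicate 2 alone. CG12728, which entered the list only through a RefSeq synonym (XRCC4), had 2.18 and -1.25. Irbp18 had differences of 0.58 and 1.07.

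**Figure D3:**
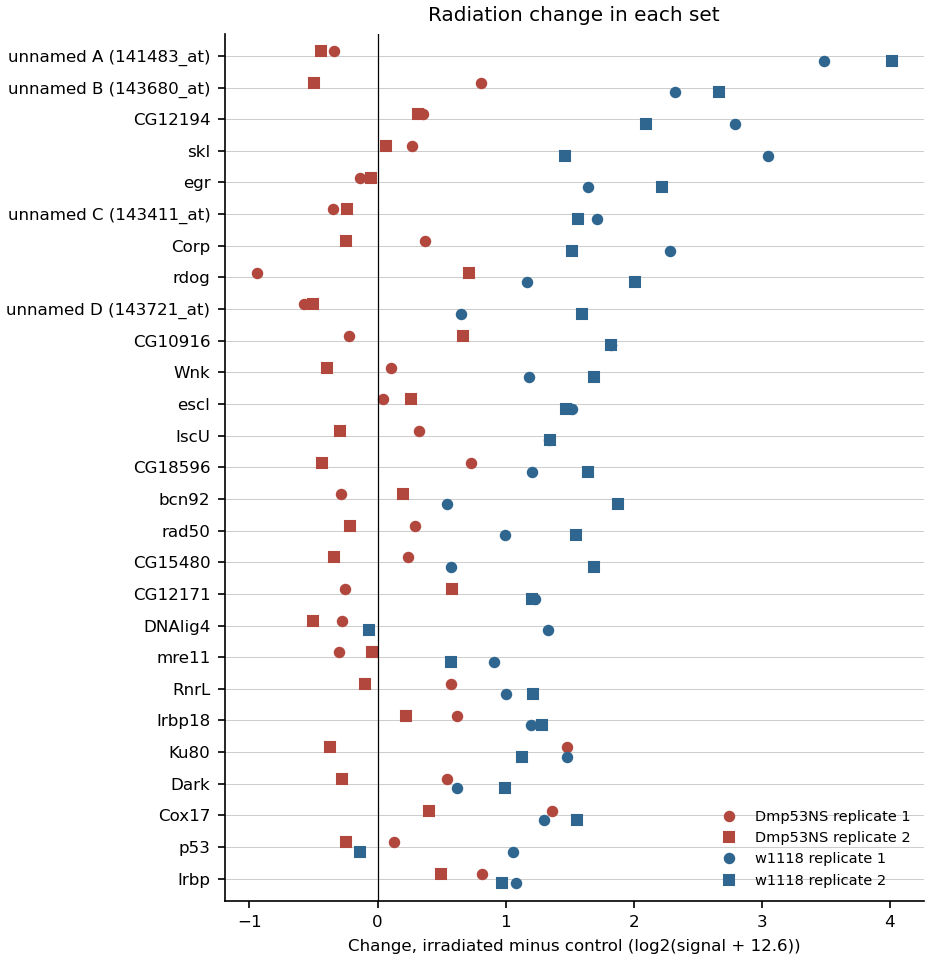
Log2 change of irradiated over control signal in each set for the tested members of the fixed set of radiation-response genes, Dmp53NS in red above w1118 in blue, circles for replicate 1 and squares for replicate 2. The w1118 points lie right of the Dmp53NS points in the upper rows, from unnamed A to escl, and overlap them for Ku80 and Cox17 near the bottom.

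Other repair and checkpoint groups had medians of 0.23 to 0.33, against -0.05 over all probe sets tested, and in replicate 1 their medians lay between -0.25 and 0.12. Homologous recombination had a median of 0.24 over 4 genes, with -0.25 in replicate 1 and 0.50 in replicate 2, and 0 were above 0 in both and 1 below. Excision and translesion repair had 0.27 over 9 genes (0.09 and 0.47), 4 above and 1 below, against 19.3% and 24.7% of all tested probe sets. Its largest member was PolZ1, the catalytic subunit of the translesion polymerase zeta, with differences of 0.93 and 2.57, or 1.75 over both (adjusted p = 0.235). Among 8 checkpoint genes the median was 0.33, with 0.12 in replicate 1 and 0.05 in replicate 2, and lok, the Chk2 kinase that activates p53, had differences of -0.45 and -0.12. RnrL, whose enzyme (ribonucleotide reductase) makes DNA precursors, had 945 and 827 in irradiated and 630.0 and 888 in control Dmp53NS embryos, against 1525 and 2216 in irradiated and 756 and 947 in control w1118 embryos. Both irradiated w1118 arrays were the highest, and the difference was 0.42 and 1.32 (mean 0.87, interval -0.05 to 1.79, adjusted p = 1). The 4 genes of ribonucleotide reductase and the single-strand binding protein RPA had medians of -0.15 and 0.61.

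Of 6 genes of iron-sulphur cluster assembly and related mitochondrial factors, 3 had a difference above 0 in both replicates and 1 below. The shares of all tested probe sets were 19.3% and 24.7%. The median of the 6 genes was 0.61. IscU, bcn92 and Cox17 had been called in wild-type sets in earlier results of these data, so the counts and the median are descriptions. IscU, the scaffold on which the cluster is built, had 337 and 458 in irradiated and 266 and 565 in control Dmp53NS embryos, against 1463 and 2413 in irradiated and 572 and 941 in control w1118 embryos. The change was 0.33 and -0.29 in Dmp53NS, against 1.34 and 1.35 in w1118, where the replicates were nearly equal. The difference of 1.33 had an interval of 0.40 to 2.25 and an adjusted p of 0.71. bcn92, which encodes a small LYR-motif partner of the sulphur donor, had differences of 0.83 and 1.68, and Nfs1, the sulphur donor itself, had 0.34 and 1.02. fh, the fly frataxin, had -0.27 and -0.22. Cox17, a copper chaperone for cytochrome oxidase, had changes of 1.36 and 0.40 in Dmp53NS and of 1.30 and 1.56 in w1118, so its difference was -0.058 in replicate 1 and 1.15 in replicate 2.

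The less known genes CG12194, CG10916, escl, Wnk, rdog, CG18596, CG15480 and CG12171 had been called in wild-type sets in earlier results of these data. Their differences contain the w1118 change, so the size of these differences is only described. CG12194 had 321 and 309 in irradiated and 248 and 246 in control Dmp53NS embryos, against 915 and 805 in irradiated and 122 and 179 in control w1118 embryos. Its irradiated w1118 arrays were the highest and its w1118 controls the lowest, with a difference of 2.43 and 1.78, or 2.11 over both (SE 0.50, interval 1.13 to 3.08). Its adjusted p was 0.0526, and 0.0463 where the constant added before the log was 42.6 in place of 12.6. Another probe set without a gene name, unnamed C, had 208 and 248 in irradiated and 269 and 295 in control Dmp53NS embryos, against 1155 and 1035 in irradiated and 343 and 341 in control w1118 embryos. Its irradiated w1118 arrays stood above the other 6, and its difference was 2.06 and 1.81, or 1.94 over both (SE 0.49, adjusted p = 0.106).

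CG10916 had 201 and 377 in irradiated and 237 and 233 in control Dmp53NS embryos, against 1003 and 1025 in irradiated and 274 and 281 in control w1118 embryos. The difference was 2.05 and 1.16 (mean 1.60, adjusted p = 0.274). escl, which encodes a Polycomb repressive complex subunit, had differences of 1.47 and 1.21. Wnk, a kinase of osmotic regulation, had 1.08 and 2.09. Each of these had both irradiated w1118 arrays above the other 6.

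For rdog and a probe set without a gene name, unnamed D, the starting levels differed between strains. rdog had 842 and 1724 in irradiated and 1632 and 1048 in control Dmp53NS embryos, against 460 and 878 in irradiated and 198 and 208 in control w1118 embryos. Its Dmp53NS controls were thus above both irradiated w1118 arrays, and its difference of 1.71 (2.11 and 1.30, adjusted p = 0.147) contrasts changes from unequal levels. Unnamed D had 846 and 1065 in irradiated and 1266 and 1516 in control Dmp53NS embryos, against 1407 and 2217 in irradiated and 890 and 724 in control w1118 embryos. It was lower after radiation in both Dmp53NS sets, by 0.57 and 0.50 on the log2 scale, and its difference of 1.67 (1.23 and 2.10) had an adjusted p of 0.149. CG18596 had differences of 0.48 and 2.08, CG15480 of 0.34 and 2.03, and CG12171 of 1.48 and 0.63.

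By the smaller of their 2 day-matched differences, the 15 highest genes also took in 11 of low signal, with mean differences between 1.48 and 2.37. None of the 11 passed the test, and they were CG34166, B9d1, CG3448, Nplp3, olf413, CG15097, Hex-A, Gr8a, Klf15, CG42346 and IM33. CG3448 had 45.7 and 73.2 in irradiated and 71.4 and 94.3 in control Dmp53NS embryos, against 116 and 129 in irradiated and 46.3 and 11.8 in control w1118 embryos. In B9d1, a gene of the ciliary transition zone, the strains moved in opposite directions, with changes of -1.46 and -1.11 in Dmp53NS and 1.34 and 0.74 in w1118. For Nplp3, a neuropeptide precursor, Gr8a, a taste receptor gene, and IM33, an immune-induced peptide gene, the Dmp53NS change was below -1 in both replicates and the w1118 change was not above 1 in either. Hex-A, a hexokinase, and olf413 had w1118 changes of 1.56 and 1.67 and of 2.24 and 1.55, on w1118 control signals of 2.2 to 28.7. The other probe sets of olf413 had differences of -0.32 and 0.87.

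Where the difference was below 0, no gene passed, and most signals were low. form3, a formin that builds actin filaments, had 157 and 103 in irradiated and 61.3 and 34.6 in control Dmp53NS embryos, against 45.1 and 62.9 in irradiated and 96.2 and 114 in control w1118 embryos. The change was above 1 in both Dmp53NS sets and below 0 in both w1118 sets, with a difference of -2.11 and -2.04 (mean -2.08, SE 0.66, adjusted p = 0.323). Other form3 probe sets, too dim to test, did not share this, with mean differences of 1.69 and -0.16. The one at 1.69 had Dmp53NS changes of -1.14 and -1.47. CG15278 had -3.62 and -1.41, and spri, a Ras and Rab regulator, had -1.70 and -3.30, each with an adjusted p of 0.147. The other spri probe sets lay between -0.49 and 0.19. Sik2, a salt-inducible kinase, had -2.21 and -1.86, Socs44A, a suppressor of cytokine signalling, had -1.45 and -1.44, and Chpf, which builds chondroitin, had -1.62 and -1.58. CG12590 had -2.02 and -1.71, Uros2 had -1.60 and -1.66, CG10376 had -1.40 and -1.81, and DIP-gamma, a cell surface protein gene, had -1.54 and -1.45. From the lists, Pc, the chromodomain protein Polycomb, had -1.39 and -2.33, in contrast to escl, and mRpL3, a mitochondrial ribosomal protein gene, had -2.40 and -1.21.

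Counts over all tested probe sets put these in proportion. A difference above 1 in both replicates was found for 68 (0.812%) and below -1 in both for 53 (0.633%). Opposite signs were as frequent, since 74 (0.883%) were above 1 in replicate 1 and below -1 in replicate 2, and 90 (1.07%) the reverse. The counts of matching sign are therefore no larger than those of opposite sign. Across probe sets the replicate 1 and replicate 2 differences had a correlation of -0.09, a description over points that share the same 8 arrays. The SD of the mean difference was 0.52, against 0.57 for the replicate difference put on the same scale, so the genotype term varied no more than the replicates did. Of the 5587 dim probe sets not tested, 83 were above 1 in both replicates and 109 below -1.

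The matching set can be described by the change in each strain. Of the 68 above 1, the Dmp53NS change was below -1 in both replicates for 7 and the w1118 change above 1 in both for 21. Of the 53 below -1, the Dmp53NS change was above 1 in both for 6 and the w1118 change below -1 in both for 4. The mean w1118 change was larger in size than the mean Dmp53NS change for 53 of the 68 and 24 of the 53. How many of all tested probe sets show this was not counted. The 68 and the 53 were picked by the difference itself, so their make-up is only described. Seen by strain, 19 probe sets had changes above 1 in both Dmp53NS sets and 19 below -1 in both, against 36 and 8 in w1118. Over all tested probe sets the replicate 1 and replicate 2 changes had a correlation of -0.29 in Dmp53NS and 0.09 in w1118. Counts over both replicates, and means of them, are therefore not alike in the 2 strains. Of the 36, Mdr49, an ABC transporter gene, and Fife, a synaptic gene, had Dmp53NS changes of 2.41 and 0.46 and of 1.88 and 1.04, so their differences were 0.18 and -0.19. Among the 19 with upward changes in Dmp53NS, nec, a serpin that restrains Toll signalling, had changes of 2.20 and 1.58, against -1.72 and 0.24 in w1118. svp, an orphan nuclear receptor gene, had changes of 1.56 and 1.15, against -0.35 and 0.60.

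The 2 directions also parted with brightness. Split by mean signal on the control arrays, a split chosen after the data were seen, 20 of 4581 probe sets over 200 were above 1 in both replicates and 3 were below -1. Over 500 these counts were 11 and 0 of 2258. Over 200, 39 were above 1 in replicate 1 and below -1 in replicate 2, and 6 the reverse; over 500 these were 6 and 1. The 20 were Corp, IscU, escl, CG10916, rdog and unnamed B, C and D described above, and Sirt1, poe, Lk6, CG3198, Ufd4, mav, Uch, Nrd1, pyd, Meics, Mondo and 1 further probe set without a gene name. For Sirt1, a protein deacetylase, the change was -0.80 and -0.11 in Dmp53NS and 1.02 and 1.26 in w1118. The 3 lower ones were CG30269, CG9184 and CG12025.

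The contrast between the replicates, which asks whether the radiation change of both strains differed with the hybridization day, also called 3 probe sets (0.0358%). They were Osi6, mrj and dhd, none of them a radiation-response gene listed here. Osi6, a gene of the Osiris family expressed in cuticle-forming cells, had a signal of 622 on the same Dmp53NS control array on which TwdlN was high, against 34.2 to 391 on the other 7. dhd, a maternal thioredoxin, had changes of -0.44 and 1.44 in Dmp53NS and of -0.79 and 2.30 in w1118.

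**Figure D4:**
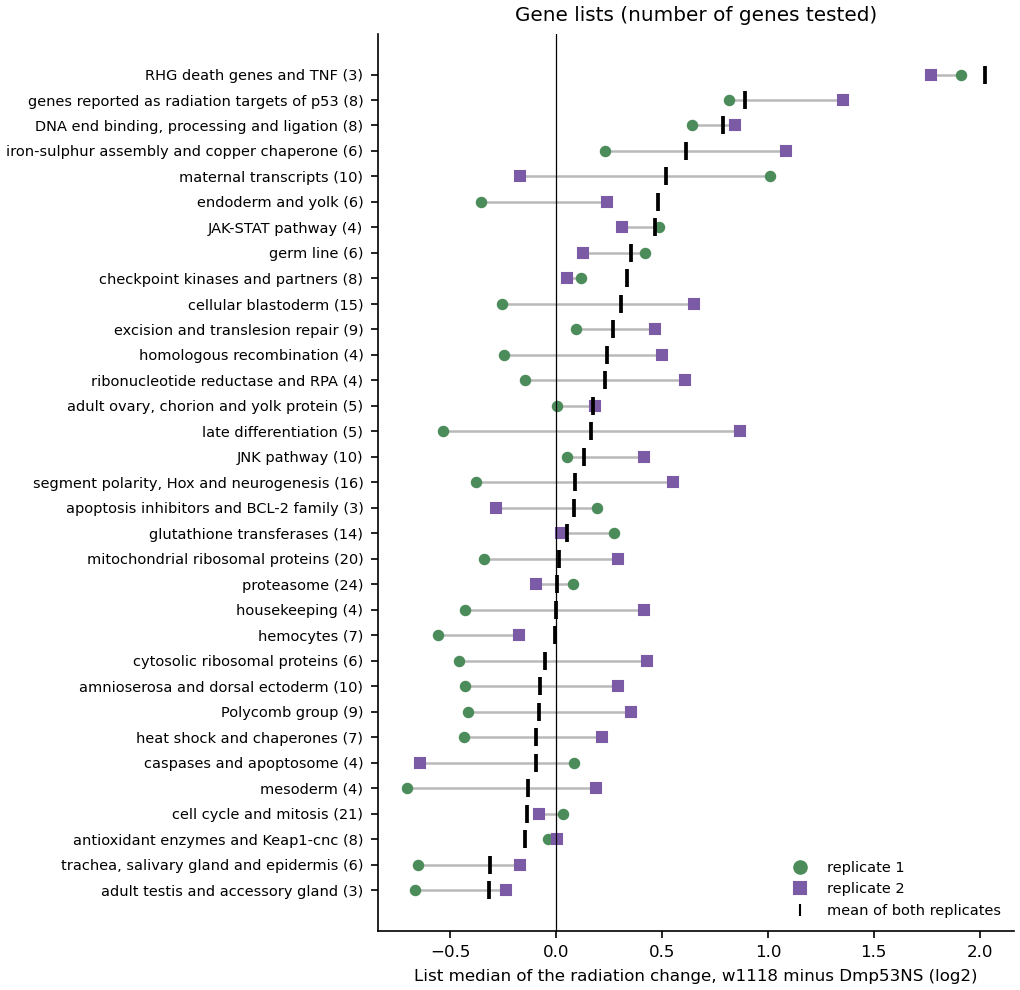
Median w1118 minus Dmp53NS difference (log2) of each gene list with at least 3 tested genes, with the replicate 1 median as a circle, the replicate 2 median as a square and the median of the mean difference as a bar. The death gene list (skl, egr and Corp) lies apart at 2.02. In many of the lists below the iron-sulphur genes the replicate medians lie on opposite sides of 0.

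No list had a member among the 3 probe sets that passed the test (0.0358% of all tested). Unnamed A and unnamed B could not be on a list of gene names, and TwdlN was on none. This outcome therefore says nothing about the lists. Of all tested probe sets, 19.3% were above 0 in both replicates and 0.812% above 1 in both. Genes reported as radiation targets of p53 had a median of 0.89 over 8 tested, with 7 above 0 in both replicates and 3 above 1 in both; this list may hold genes first reported from these same arrays, so its direction is not independent. The JAK-STAT pathway had 0.47 over 4 genes, 3 of them above 0 in both, and Stat92E, its transcription factor, had 0.62 and 0.77. Maternal transcripts had 0.52 over 10, with medians of 1.01 in replicate 1 and -0.17 in replicate 2. For other lists the replicate 1 median was the lower one: segment polarity, Hox and neurogenesis genes had -0.38 and 0.55, and cellular blastoderm genes -0.25 and 0.65. The late differentiation list, of muscle, neuron and cuticle genes, had -0.54 and 0.87. Proteasome genes (24 tested) had 0.00, cell cycle and mitosis genes (21) -0.14, mitochondrial ribosomal proteins (20) 0.01, glutathione transferases (14) 0.05, JNK pathway genes (10) 0.13, heat shock genes (7) -0.09 and antioxidant genes (8) -0.15.

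The yw pair shares no array with the above, and its changes were used to choose among the 8379 probe sets tested. Those had passed a filter on mean signal over the 8 arrays, so the choice was not wholly independent of them. Unnamed A passed with 1324 and 898 on irradiated w1118 arrays and 11.4 to 106 elsewhere. The 50 probe sets with the largest change upward in yw had a median w1118 minus Dmp53NS difference of 0.15, and the 50 with the largest change downward had -0.17, against -0.05 over all. Among the 50 upward, 18 were above 0 in both replicates and 8 below, against 19.3% and 24.7% of all probe sets tested. Above 1 in both were 7, against 0.812% of all. In the other direction 1 was below -1 in both (0.633% of all), DIP-gamma, with a yw change of 2.45 and differences of -1.54 and -1.45. The 7 were unnamed A, unnamed B, skl, Corp, CG10916, Wnk and IscU, with yw changes of 5.75, 2.73, 5.01, 2.38, 3.65, 2.91 and 2.51. Among the 50 downward, none was above 1 in both and 1 was below -1. The median change of all 50 upward was thus near 0 in either Dmp53NS (0.12) or w1118 (0.09), and the larger differences belonged to a few of them. TwdlN, by contrast, had a change of -0.19 in yw.

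**Figure D5:**
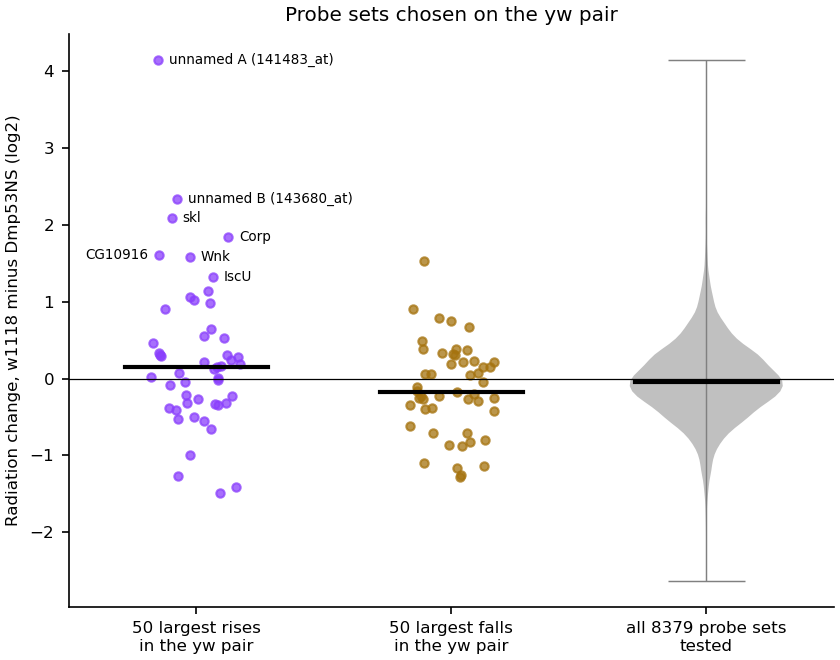
Difference in radiation change, w1118 minus Dmp53NS (log2), for the 50 largest rises and 50 largest falls in the yw pair, as points with the median as a bar, beside the distribution over all 8379 probe sets tested, drawn from its lowest to its highest value. The labelled points are the 7 above 1 in both replicates, and the other points of both chosen groups overlap the whole.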

How the data were processed

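Signal was measured on Affymetrix DrosGenome1 arrays, 1 per embryo collection. The deposited values are probe set intensity on a linear scale, computed by the authors in MAS5, as named in the submitters' processing notes, with version and settings not given in the sources used here. The trimmed mean (2% off each end) was 250.04 on all arrays, so the deposited intensity was globally scaled. Of 13966 probe sets, 12443 had 1 gene symbol, 327 several and 1196 none, from the platform annotation; 12394 Entrez identifiers matched RefSeq, which changed 0 symbols. rpr, hid and Xrp1 have no named probe set and were not analysed here. No sequence or coordinate is given, since no genome of the array's build was used.

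Values were analysed as log2(signal + 12.6), 12.6 being the 20th percentile over the 8 arrays, which understates changes at low signal. A mean over 45.78, the 40th percentile, was required and left 8379 probe sets of 6877 genes. A gene with several is represented by the brightest. limma 3.58.1 in R 4.3.3 (lmFit, eBayes with a trend) fitted set, irradiation, irradiation by replicate and irradiation by genotype, leaving 1 residual degree of freedom beside an infinite prior. Adjusted p-values are Benjamini-Hochberg, two-sided, threshold 0.05. The fit was also run on simulated data drawn with its own fitted variances, which cannot check whether the p-values hold in these data.

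The replicate number pairs the sets because, per the run records, the arrays of each number shared a hybridization day and chip lot; deviations of same-numbered arrays from their group means correlated at 0.437 to 0.620 in all 6 pairs of groups. Whether sets came from separate cultures is stated only as biological replicates. The p-values rest on the spread between sets taken over probe sets of like signal, not on that of each probe set.

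The members, gene lists (320 of 425 genes matched) and tests were chosen with earlier results of these data known. Named are the probe sets that passed, the 15 highest and 10 lowest genes by the smaller of the 2 day-matched differences, a fixed set of radiation-response genes with 4 unnamed probe sets, and list members beyond 1 in both replicates; other list members, the bright probe sets, the day-contrast genes and the strain-wise examples were named after their values were seen. Alternatives covered normalization, constant, filter, variance model, blocks, threshold and each set left out, the last without pairing by day.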

Additional observations from a re-analysis of the deposited data

Results flagged for a closer look

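For 3 probe sets the test of the difference between genotypes itself passed: unnamed A with a w1118 minus Dmp53NS difference of 4.14 log2, unnamed B with 2.34, and TwdlN with 3.58. All 3 were higher in irradiated than in control w1118 embryos in both replicates. Unnamed A and unnamed B were also higher in the yw pair (by 5.75 and 2.73), where TwdlN had a change of -0.19. The TwdlN difference was 5.30 in replicate 1, which holds a Dmp53NS control array at a signal of 517, and 1.86 in replicate 2.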

How the results depend on the processing

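The 3 calls were made with 1 residual degree of freedom. The same 3 were called with a constant of 1 before the log, no filter on dim probe sets, a filter at the 60th percentile and a robust variance; a constant of 42.6 or a threshold of 0.10 made it 4 by adding CG12194. With only the set as a block, without pairing sets by day, the count was 3, the same probe sets. With no block at all limma called 0 (73 at an unadjusted p under 0.05), and with set as a random block 0 (154); the cause was not tested. Quantile normalization gave 1, unnamed A. Without a variance trend there were 6, of which unnamed A and TwdlN had positive differences and spri, CG15278, nec and a probe set with no gene name negative ones. Leaving out a set gave 0 to 9: 0 without Dmp53NS replicate 1 (368 unadjusted), 1, TwdlN, without Dmp53NS replicate 2, 9 without w1118 replicate 1 and 0 without w1118 replicate 2 (103). For the day contrast, quantile normalization gave 1 and no variance trend 14. The median difference of yw rises was 0.35 without replicate 1, 0.23 without replicate 2 and 0.54 for the 20 largest; that of yw falls was -0.10 after quantile normalization, -0.22 without either replicate, -0.062 for the 20 largest and -0.075 for the 100 largest. Of 794 alternative values of 51 named probe sets, 4 changed sign, all with arrays left out: p53 (-0.076 without w1118 replicate 1, up to 1.12), Ku80 (-0.18 without Dmp53NS replicate 2, -0.0023 without replicate 2, up to 1.67) and Cox17 (-0.058 without replicate 2, up to 1.15). Dim signals limit what can be seen.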
